A study of Rattus norvegicus with 15 samples.

Results

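Axon guidance ligands and receptors were examined in the olfactory epithelium of young adult rats. They were the probes whose gene name, as printed on the array, began with or equalled Sema, Plxn, Nrp1, Nrp2, Robo, Slit, Epha, Ephb, Efna, Efnb, Ntn, Unc5, Dcc or Kirrel. This rule, which used no measured value, found 99 probes for 68 genes among the 41012 probes of a whole-genome rat array. A pair of genes fitted the letters but not the roles: Unc50 is no netrin receptor, and Unc5cl is an Unc5-like protein without a known part in netrin signalling. All animals were Brown Norway rats of 6 weeks, and the labels gave no treatment. The series held 15 arrays from 8 rats, 4 of each sex, with 1 array for each nostril, called A and B, of every rat but male 1, of which nostril A alone was hybridised. The labels did not say which nostril was the left. The rats were males 1, 2, 5 and 6 and females 3, 4, 7 and 8. The arrays lay on 4 slides: slide 1 held male 1, male 2 and nostril A of female 3, slide 2 the other array of female 3 and both of female 4, slide 3 males 5 and 6, and slide 4 females 7 and 8.

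Guidance cues steer growing axons by attracting or repelling the growth cone. Secreted semaphorins act through neuropilins paired with plexins, membrane semaphorins mostly bind plexins directly, Slits repel through Robo receptors, ephrins and Eph receptors signal at cell contacts in both directions, and netrins attract through Dcc or repel through Unc5. The olfactory epithelium renews its neurons throughout life, so new axons keep growing to the olfactory bulb. In the mouse, graded Nrp1, Nrp2 and Robo2 help to place these axons along the axes of the bulb, whereas Kirrel proteins, ephrin-As and EphA receptors take part in their local sorting.

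The markers of the labelled tissue were present, as 11 of 12 probes for mature and 8 of 8 for immature olfactory neurons were expressed. Between 26233 and 28741 probes, 64.0 to 70.1%, stood well above background on an array, and the members counted 70 to 79 of 99. The number of arrays limits the precision of every comparison. A level is given here as the log2 of a probe's signal over the median probe of its array, so that 0 is the median probe and 1 unit is a 2-fold difference. Levels of different probes were not set against each other, because probes differ in brightness for the same amount of transcript.

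A probe was called expressed when it stood well above background on at least 11 of the 15 arrays, weakly expressed on 1 to 10, and not expressed on 0. Of the 99 members, 73 were expressed (73.7%), 15 were weakly expressed and 11 were not expressed, whereas 65.1% of all probes on the array were expressed, 11.1% weakly and 23.8% not. At the level of genes, 50 of 68 had at least 1 expressed probe and 18 had none. The expressed set held ligands and receptors of every family.

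**Figure D1:**
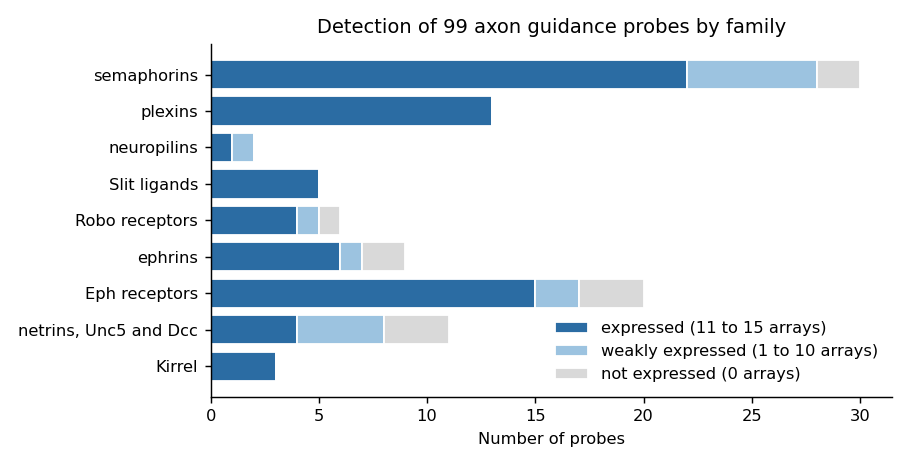
Horizontal bars count the probes of each guidance family by the number of the 15 arrays on which they stood well above background. All probes of the plexins (13), Slits (5) and Kirrels (3) were expressed, against 4 of 11 in the netrin group. Unc50, which is no netrin receptor, is among those 4, and Unc5cl is among the others of the group.

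Among the ligands, 22 of 30 semaphorin probes were expressed, and these covered 16 of 20 genes. Sema3a, Sema3b and Sema3f, secreted ligands of the neuropilins, were detected on all 15 arrays, with Sema3a between -0.18 in male 6 and 0.42 in female 4 and Sema3f between 3.48 and 3.71. Both Sema3c probes, both Sema3g probes and the Sema3e probe were detected on at most 2 arrays. All 5 Slit probes were expressed on every array. The Slit2 probes varied little between animals, from 5.73 to 6.10 for A_44_P194230 and from 3.17 to 3.32 for A_44_P961703, whereas Slit3 ran from 3.76 in female 4 to 4.90 in male 5. Of the ephrins, all 6 probes of the GPI-anchored ephrin-As (Efna1 to Efna5) were expressed, and none of the 3 ephrin-B probes was. Efnb1 and Efnb2 were detected on 0 arrays and Efnb3 on 1, nostril B of female 8. The netrins showed the same contrast within 1 family: Ntn1, the best known attractant of the family, and Ntng2 were detected on 0 arrays, and Ntn2l on all 15, between -0.03 and 0.43.

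Among the receptors, all 13 plexin probes were expressed, 11 of them on every array. Plxna3 and Plxna4, which pair with neuropilins, were detected on 15 of 15 arrays, and so was the probe A_44_P932384 of Plxnc1, the receptor of Sema7a, while its other probe was detected on 11. The neuropilins were split: Nrp1 lay between 2.03 and 2.42 in all 8 rats, and Nrp2 was well above background on 2 arrays. Robo1 and all 3 Robo2 probes were expressed, Robo3 was detected on 0 arrays and Robo4, a receptor of blood vessels, on 2. Of the netrin receptors, Dcc was detected on 0 arrays, Unc5a on 1 and Unc5c on 8, whereas Unc5b was detected on all 15, between 2.23 and 2.59. Of the Eph receptors, 15 of 20 probes were expressed, and of 11 genes Epha6 and Epha8 had no expressed probe. Kirrel1 and both Kirrel3 probes were detected on all 15 arrays, with the Kirrel3 probe A_44_P980916 between 4.39 and 4.76. Of 29 genes listed for the wiring of the olfactory system, Plxna1 and Kirrel2 had no probe among the members, Kirrel was read as Kirrel1, 22 had at least 1 expressed probe, and Nrp2, Efnb1, Efnb2, Ntn1 and Dcc had none.

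A detection call belongs to a probe rather than to a gene. Of the 25 genes with several probes, 17 had all of them expressed, 3 had none (Epha6, Sema3c and Sema3g) and 5 were divided: Ephb2, Ephb6, Sema6d, Sema3d and Unc5d. In all 5 divided genes the probe detected on fewest arrays was the one nearest the 5′ end of the transcript by the array's annotation on genome build rn3. The distance to the next probe was 116 kb for Ephb2, 6.99 kb for Ephb6, 2.80 kb for Sema6d, 23.9 kb for Sema3d and 266 kb for Unc5d. The probes of Ephb2 and Ephb6, receptors of the ephrins, and the probe of Nrp2 are shown, since they decide whether these genes read as expressed. For Ephb2 the undetected probe lay on the minus strand at chr5:155550210-155550269 and the detected one at chr5:155433784-155434759, whose span is longer than its 60 bases and so crosses an intron. For Ephb6, on the plus strand, they lay at chr4:69600228-69600782 and chr4:69607470-69607529. The Nrp2 probe lay on the plus strand at chr9:61604250-61606887. All are written 5′ to 3′ in the sense of the transcript.
Ephb2, 0 arrays: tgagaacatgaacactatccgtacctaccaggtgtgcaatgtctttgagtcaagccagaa
Ephb2, 15 arrays: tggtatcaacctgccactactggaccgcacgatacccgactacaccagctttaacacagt
Ephb6, 0 arrays: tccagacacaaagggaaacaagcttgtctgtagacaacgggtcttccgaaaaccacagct
Ephb6, 15 arrays: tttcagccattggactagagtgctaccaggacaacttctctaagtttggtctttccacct
Nrp2, 2 arrays: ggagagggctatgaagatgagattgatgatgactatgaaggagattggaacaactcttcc

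In the comparison between rats, Sema7a and the receptors Epha5 and Epha7 were higher in every one of rats 1 to 4 than in any of rats 5 to 8. The difference was 1.73- to 1.98-fold on average for the 4 probes that passed the test. For these 4, the largest difference between the nostrils of 1 rat ran from 0.21 for Sema7a to 0.37 for Epha5 A_44_P184706. Differences between rats were tested with limma's F over the rats within each sex, with the difference between nostrils as the error, on the 76 members detected on at least 7 arrays. Of these, 4 passed a false discovery rate of 1% (5.26%) and 10 passed 5%, against 2.79% and 16.1% of the 27574 probes tested. The members as a whole did not stand out, with a median F of 2.18 against 2.37 for all probes, and 28 of 76 (36.8%) at an unadjusted p under 0.05 against 37.1%. The 4 were the Sema7a probe, both Epha5 probes and the Epha7 probe A_44_P241909. With slide as a block 0 members passed 1%, against 0.00363% of all probes, and 13 (17.1%) had an unadjusted p under 0.05, against 17.1%. The arrays of rats 1 to 4 and of rats 5 to 8 shared no slide, so that rats and slides cannot be told apart in these comparisons. The animals came from a pair of suppliers, with males and females from each, but the labels did not give the supplier of a rat, so a difference between rats 1 to 4 and rats 5 to 8 cannot be told apart from one of supplier either.

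**Figure D2:**
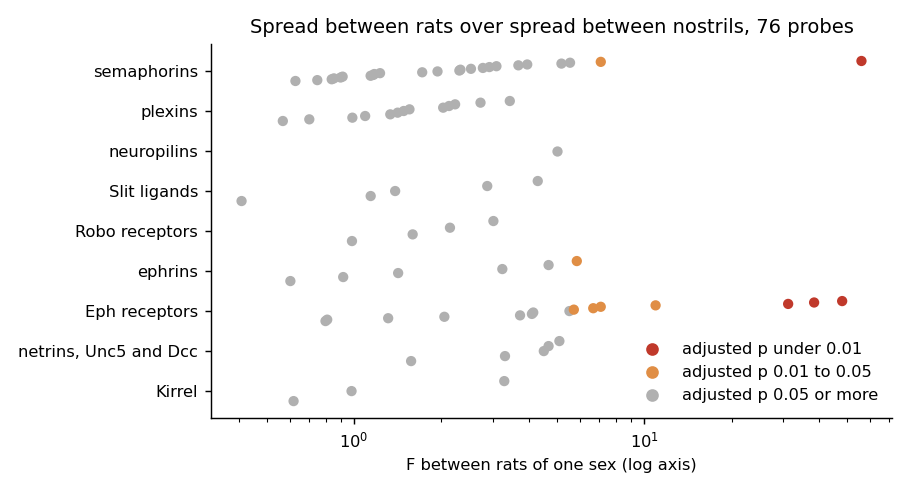
Each point is 1 of the 76 tested probes, placed by the F between rats of one sex on a log axis and by family, and coloured by its adjusted p. The points past 0.01 are 3 Eph receptor probes and 1 semaphorin probe, Sema7a, at F from 31.3 to 56.1.

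The probes of these genes are shown because the difference between rats rests on them. The Sema7a probe lay on the plus strand at chr8:61753755-61753814, the Epha5 probe A_44_P184706 on the plus strand at chr14:25880307-25880366 and the Epha7 probe A_44_P241909 on the plus strand at chr5:44875757-44875816, all on rn3. The Epha7 probe A_44_P254373 spanned chr5:44854189-44858226 and so crosses an intron. Capitals mark the bases that the Epha5 and Epha7 probes share when they are aligned without gaps at a shift of 3 bases, 36 of 57 or 63.2%. Epha5 and Epha7 are thus read by probes in a related stretch of their transcripts.
Sema7a A_44_P173554: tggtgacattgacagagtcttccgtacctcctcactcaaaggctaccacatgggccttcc
Epha5 A_44_P184706: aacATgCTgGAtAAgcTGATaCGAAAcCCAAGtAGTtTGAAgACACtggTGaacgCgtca
Epha7 A_44_P241909: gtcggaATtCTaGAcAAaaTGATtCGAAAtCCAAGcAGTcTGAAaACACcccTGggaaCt
Epha7 A_44_P254373: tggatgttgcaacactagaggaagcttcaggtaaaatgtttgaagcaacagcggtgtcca

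Sema7a is a membrane-anchored semaphorin that binds plexin C1 and integrins and can promote axon growth. Its level was 3.25 in male 1, 3.11 in male 2, 2.91 in female 3, 2.57 in female 4, 2.38 in male 5, 2.21 in male 6, 2.24 in female 7 and 1.84 in female 8. The rats 1 to 4 did not overlap rats 5 to 8, and the means differed by 0.79, which is 1.73-fold. The nostrils of a rat differed by at most 0.21 (F = 56.1, adjusted p = 0.00028). Within slides male 1 exceeded male 2 by 0.14, female 8 lay below female 7 by 0.41, and with slide as a block the adjusted p was 0.157. After normexp background correction, F fell to 7.80 and the adjusted p was 0.022.

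Epha5, a receptor for ephrin-As, had concordant probes. By A_42_P498708 its level was 4.01 in male 1, 3.76 in male 2, 3.83 in female 3, 3.34 in female 4, 2.82 in male 5, 2.80 in male 6, 2.98 in female 7 and 2.53 in female 8 (F = 48.1, adjusted p = 0.00042). By A_44_P184706 it ran from 3.44 to 4.02 in rats 1 to 4 and from 2.65 to 3.16 in rats 5 to 8 (F = 38.5, adjusted p = 0.00078). Rats 1 to 4 did not overlap rats 5 to 8 by either probe, and the means differed by 1.94-fold and 1.98-fold. The nostrils of a rat differed by up to 0.33 and 0.37. Nostrils A and B of female 3, on slides 1 and 2, read 3.79 and 3.87 by the first probe, against 3.18 and 3.51 in female 4 on slide 2. With slide as a block the adjusted p was 0.176 and 0.177.

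Epha7, a related receptor, fell into steps that followed pairs of rats. By A_44_P241909 its level was 0.28 in male 1 and 0.16 in male 2, -0.62 in female 3 and -0.58 in female 4, -1.20 in male 5 and -1.28 in male 6, and -0.95 in female 7 and -1.01 in female 8 (F = 31.3, adjusted p = 0.0013). Rats 1 to 4 lay above rats 5 to 8, and the means differed by 1.89-fold. On slide 1 itself, the 3 male arrays read 0.28, 0.13 and 0.19 and nostril A of female 3 read -0.70, near the -0.55 of her nostril B on slide 2. Rats of the same slide and sex differed by at most 0.11, and with slide as a block the adjusted p was 0.945. By A_44_P254373 rats 1 to 4 again lay above rats 5 to 8, from 0.84 to 1.24 and from 0.36 to 0.70, but female 7 (0.70) and female 8 (0.36, the lowest rat) did not lie together. For this probe the means differed by 1.49-fold, the nostrils differed by up to 0.52 and the adjusted p was 0.014. An unnamed transcript, TC527973, whose probe lies 6.03 kb beyond that of Epha7 on the same strand, stepped in the same pairs: 4.78 and 4.74 in males 1 and 2, 3.78 and 3.87 in females 3 and 4, 3.20 and 3.23 in males 5 and 6, and 3.46 and 3.49 in females 7 and 8. It was named after its values were seen.

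**Figure D3:**
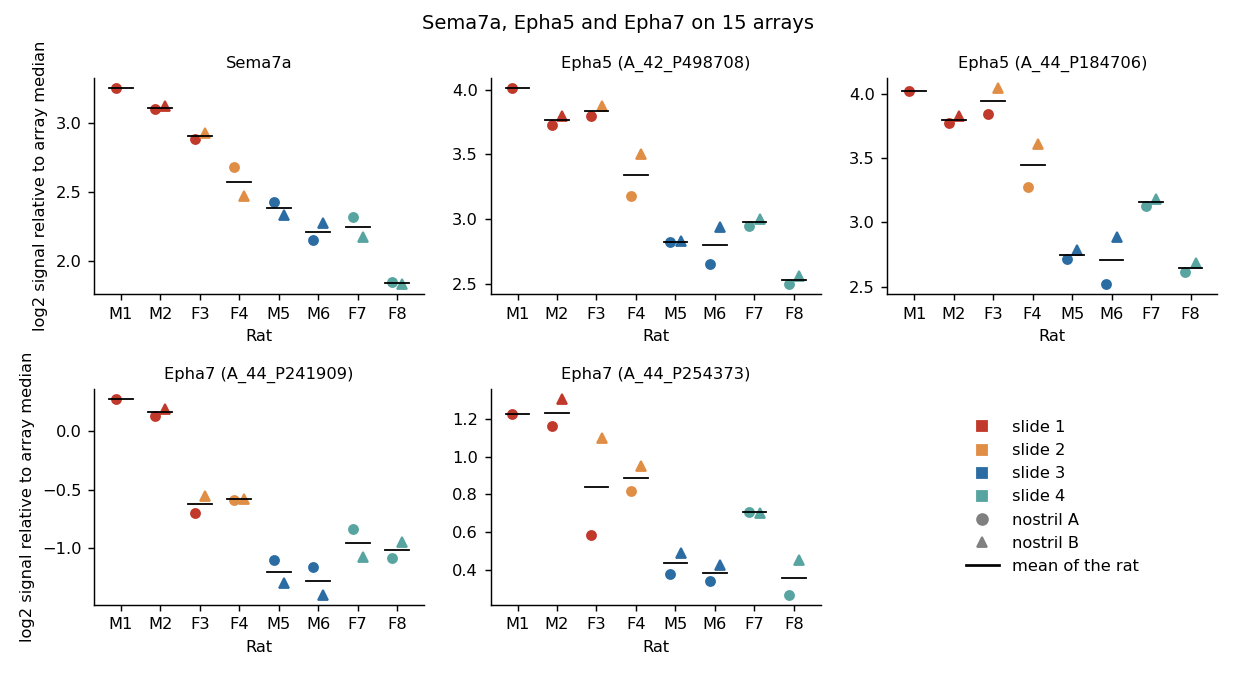
Levels of Sema7a, Epha5 and Epha7 (log2 signal relative to the array median) on all 15 arrays, by rat, with circles for nostril A, triangles for nostril B, colours for slides and a line at each rat's mean. In every panel the means of rats 1 to 4 lie above those of rats 5 to 8. Epha7 by A_44_P241909 falls from 0.28 in male 1 to -1.28 in male 6.

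The promoters of these 3 genes are shown because their probes passed the test between rats. They are the 250 bases before each start site from RefSeq on build GRCr8, at chr8:67244068-67244317 for Sema7a, chr14:24007872-24008121 for Epha5 and chr5:47771643-47771892 for Epha7, all on the plus strand. Capitals mark the GC box GGGCGG on either strand. It stood 2 times in Sema7a, 2 times in Epha7 and 0 times in Epha5, and 30.5% of the 33469 rat promoters of this length held it. The E-box CACGTG (5.59% of promoters) and the cAMP response element TGACGTCA (1.59%) were in none of the 3 windows. The share of G and C was 67.6% in Sema7a and Epha7 and 47.6% in Epha5.
Sema7a: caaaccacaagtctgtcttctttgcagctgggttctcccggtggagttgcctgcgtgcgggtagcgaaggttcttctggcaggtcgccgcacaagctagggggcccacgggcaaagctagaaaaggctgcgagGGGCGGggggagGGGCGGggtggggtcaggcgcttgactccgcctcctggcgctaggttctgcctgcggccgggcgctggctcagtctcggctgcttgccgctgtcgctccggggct
Epha5: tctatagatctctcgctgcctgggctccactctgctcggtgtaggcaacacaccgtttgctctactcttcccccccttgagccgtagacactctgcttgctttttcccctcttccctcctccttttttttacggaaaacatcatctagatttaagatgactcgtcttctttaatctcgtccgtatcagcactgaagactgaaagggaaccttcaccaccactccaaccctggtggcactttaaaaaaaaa
Epha7: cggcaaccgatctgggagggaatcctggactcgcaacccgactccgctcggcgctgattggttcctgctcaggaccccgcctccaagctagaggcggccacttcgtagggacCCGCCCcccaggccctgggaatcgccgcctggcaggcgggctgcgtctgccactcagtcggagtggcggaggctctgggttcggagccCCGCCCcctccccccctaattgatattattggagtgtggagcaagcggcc

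Over all 76 tested members, 8 lay higher in every one of rats 1 to 4 than in any of rats 5 to 8 (10.5%, against 4.61% of all probes tested), and 2 lay the other way (2.63%, against 6.75%). The 8 probes were those of Sema7a, Epha5 and Epha7 with Nrp1, Sema4d and Epha1 A_43_P21908, so that 4 of them came from 2 genes. The Sema4d probe was detected on 7 of 7 arrays of rats 1 to 4 and 1 of 8 arrays of rats 5 to 8, so it was tested only because of the rats where it was high. Among the 73 members tested that were detected on at least 11 arrays, which leaves Sema4d out, 7 lay higher in rats 1 to 4 (9.59%, against 4.59% of such probes). The 2 probes higher in rats 5 to 8 were Ephb2 A_44_P342858 and Plxna2 A_43_P21046. Ephb2 by that probe ran from -2.16 to -1.87 in rats 1 to 4 and from -1.54 to -1.13 in rats 5 to 8 (adjusted p = 0.036), while its probe A_44_P538695 ran from 0.84 to 1.16 and from 0.96 to 1.30, with overlap (adjusted p = 0.444). Nrp1, a receptor of Sema3a, read 2.29 to 2.42 in rats 1 to 4 and 2.03 to 2.25 in rats 5 to 8, and its adjusted p was 0.062.

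The probe of highest F in each of the other families did not pass 1%. Efna4 read 1.78 to 2.06 in rats 1 to 4 and 1.55 to 1.83 in rats 5 to 8 (F = 5.85, adjusted p = 0.046). Unc5d by A_43_P22805 was lowest in male 1, at 0.29, and highest in male 2, at 0.83 (F = 5.10, adjusted p = 0.060). Slit3 had F = 4.29, Plxna4 F = 3.44, Kirrel3 by A_44_P980916 F = 3.29 and Robo2 by A_42_P584710 F = 3.02, at adjusted p from 0.081 to 0.146. Over all tested members the means of the rats spanned a median of 0.51, from 0.15 to 1.90, against a median of 0.47 for all probes tested.

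The widest span belonged to Epha2, which stood apart in 1 animal. Its level was -0.31 in male 1 and between -2.59 and -1.73 on the other 14 arrays (F = 7.08, adjusted p = 0.032). Epha1 by A_44_P542339 showed the same animal apart, at 0.20 against -1.71 to -0.67, but its probes A_43_P21908 and A_44_P542338 did not, with 1.76 and -1.39 in male 1 against 1.42 to 1.85 and -1.97 to -1.47 in the other rats. Male 1 had 1 array, so its level has no second nostril to set beside it. Secretory transcripts of the nasal mucosa, chosen after their values were seen, were also highest on that array but ranged widely over the others. Obp2b, an odorant binding protein, read 7.42 there and between -1.73 and 7.08 on the other 14 arrays, with a median of 1.03. Dmbt1 by A_44_P552738, a mucosal defence protein, read 6.70 there and between -3.32 and 5.04 on the others, with a median of 0.92. Their part in the Epha1 and Epha2 levels was not tested.

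Of the tested markers of other cell types, 2 of 3 blood probes and no probe of any other list passed 1% between rats, against 2.79% of all probes. Alas2, an enzyme of heme synthesis in red cells (F = 38.0, adjusted p = 0.00079), and Hbb, a globin (F = 27.6, adjusted p = 0.0018), did so without following the split of rats 1 to 4 and 5 to 8: Hbb read 8.51, 6.89, 6.18 and 8.62 in rats 1 to 4 and 8.67, 9.13, 5.84 and 6.91 in rats 5 to 8. Their adjusted p were 0.053 and 0.078 with slide as a block. The summed level of 6 tested probes of basal and progenitor cells was 5.88 to 6.14 in rats 1 to 4 and 6.21 to 6.54 in rats 5 to 8, but this sum rests on Trp63, whose probes were the 2 of the 6 that lay higher in every one of rats 5 to 8. That of 3 probes of skeletal muscle was 0.65 to 0.86 and 1.02 to 2.22, with 2 of the 3, Mb and Tnnt3, higher in rats 5 to 8. Of all probes, 6.75% lay higher in every one of rats 5 to 8. The summed levels overlapped for mature neurons (10.71 to 10.98 and 10.78 to 10.99), immature neurons (11.42 to 11.58 and 11.31 to 11.54), ensheathing and Schwann cells, bone, blood, endothelium, sustentacular cells, bulb neurons and ciliated cells. Of the undetected markers, Krt14 of basal cells, S100b of ensheathing cells, Sp7 of bone and Flt1 and Tek of endothelium were on 0 arrays. In pieces of whole tissue, fewer cells of a type and less RNA per cell cannot be told apart. The part of these cell types in the differences of Sema7a, Epha5 and Epha7 was not tested.

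Between the sexes no member passed a false discovery rate of 1% or 5%. In limma on the means per rat, 0.0434% of the 27625 probes tested passed 1%, 0.0724% passed 5% and 17.1% had an unadjusted p under 0.05. The members at an unadjusted p under 0.05 numbered 9 of 76 (11.8%), 5 higher in females and 4 in males, against 12.2% and 4.9% of all probes. They numbered 3 after normexp background correction (3.95%, against 6.74%), 4 without male 5 (5.26%, against 12.4%) and 5 without male 2, female 3 or female 4 (6.58%, against 16.6%, 13.2% and 12.2%). Of these, 1 was higher in females after normexp, 3 without male 5, 4 without male 2, 5 without female 3 and 4 without female 4. With the methods' t-test on the means per rat, at the same 1% after Benjamini-Hochberg adjustment, the members called were again 0, and 11 had an unadjusted p under 0.05 (14.5%, against 16.2% of all probes). The females and males did not overlap for 6 members (against 11.3% of all probes), and the differences ran from -0.62 to 0.34 with a median of -0.05 against 0.01 for all probes.

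The lowest unadjusted p, 0.0091, belonged to Robo1, a Slit receptor. It read 1.23, 1.27, 1.09 and 1.10 in males 1, 2, 5 and 6 and 1.35, 1.48, 1.39 and 1.49 in females 3, 4, 7 and 8. All females lay above all males, by 0.25 ± 0.08 (SE), yet the adjusted p was 0.158. The difference was 0.16 within rats 1 to 4 and 0.35 within rats 5 to 8. With slide as a block, where slide 1 alone holds both sexes, it was -0.09, since nostril A of female 3 then stands for the females. Efna1, a ligand of EphA receptors, was higher in females by 0.34 ± 0.11 (SE), from -0.85 to -0.66 in males and from -0.64 to -0.25 in females (adjusted p = 0.181). Ephb1 by A_44_P503446 was higher by 0.23 ± 0.08 (SE) without overlap (adjusted p = 0.202), while its probe A_44_P763674 differed by -0.05 ± 0.10 (SE). Unc50, which is no guidance receptor, differed by 0.16 ± 0.05 (SE, adjusted p = 0.191). After normexp background correction Robo1 differed by 0.15, Efna1 by 0.15, Ephb1 by 0.16 and Unc50 by 0.10. Plxna3, a coreceptor of neuropilins encoded on the X chromosome, was lower in females by 0.22 ± 0.08 (SE), but male 2, at 2.90, lay among the females, at 2.90 to 2.95 (adjusted p = 0.229). With slide as a block, 1 member passed 1%, Epha7 by A_44_P241909, at -0.90 for females against males (adjusted p = 0.0035), against 2.32% of all probes, and this compares nostril A of female 3 with the males on slide 1. Of 5 tested probes of sustentacular cell markers 0 passed 1% between the sexes, and 4 had an unadjusted p under 0.05, all higher in females, against 12.2% of all probes. The summed level was 10.17 to 10.32 in males and 10.47 to 10.63 in females. At the same unadjusted p, 3 of 11 probes of mature neurons were higher in females, and 3 of 8 probes of ensheathing and Schwann cells and 2 of 3 of blood were higher in males, against 4.9% of all probes for males. The part of these lists in the differences between the sexes was not tested.

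**Figure D4:**
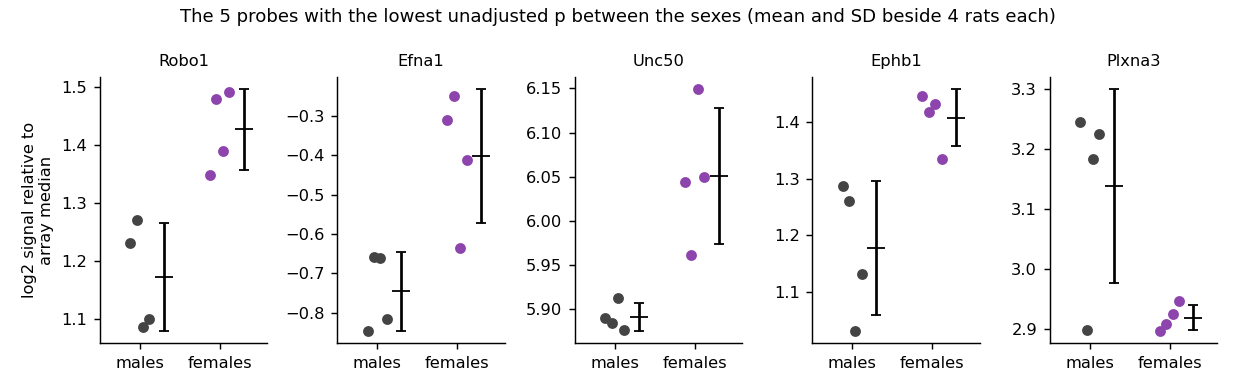
Levels (log2 signal relative to the array median) of the 5 member probes with the lowest unadjusted p between the sexes, a point for each rat, with the mean and SD of the 4 rats of a sex beside them. Robo1, Efna1, Unc50 and Ephb1 show females above males without overlap, and for Plxna3 male 2 lies among the females.

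Between nostrils A and B of the same animal, 0 members passed 1% or 5%, and 0% of all probes passed 1%, in limma with the rat as a block over 14 arrays of 7 rats. At an unadjusted p under 0.05 there were 9 of 76 members (11.8%, against 5.89% of all probes), 7 higher in B and 2 in A, against 3.44% and 2.44% of all probes. Without female 3, whose nostrils lay on different slides, there were 10 (13.2%, against 6.95%), and of these 5 were higher in B. After normexp background correction there was 1 (1.32%, against 2.36%), so that the excess over all probes was not seen. That setting also added an offset to the signals, which makes log2 differences smaller. The 3 lowest p all belonged to Robo2, a Slit receptor read by 3 probes. By A_44_P501942 the differences, B minus A, were 0.14 in male 2, 0.67 in female 3, 0.38 in female 4, 0.20 in male 5, 0.12 in male 6, 0.10 in female 7 and 0.18 in female 8. Nostril B was thus higher in 7 of 7 rats, as it was in 1.12% of all probes, by 0.26 ± 0.07 (SE). By A_42_P584710 and A_44_P900672 it was higher in 6 of 7 rats, by 0.20 ± 0.05 and 0.19 ± 0.05 (SE). The unadjusted p ran from 0.0039 to 0.0054 and the adjusted p was 0.781 for each. These probes read transcripts of 1 gene and are not independent. The probe A_42_P584710 lay on the minus strand at chr11:12708249-12717814 on rn3, across an intron, and is shown for the gene.
Robo2 A_42_P584710: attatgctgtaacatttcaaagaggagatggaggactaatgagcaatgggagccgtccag

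Epha5 was the other gene with B higher in all 7 rats, by 0.13 and 0.16 at unadjusted p of 0.026 and 0.010. Female 3, with a nostril on each of slides 1 and 2, gave the largest Robo2 difference by all 3 probes. After normexp background correction, which added an offset of 50 to the signals, the differences were smaller. They were 0.13 for A_44_P501942, 0.10 for A_42_P584710 and 0.06 for A_44_P900672. The median difference over all probes moved from 0.01 to -0.05 with that correction. With slide as a term, which sets female 3 aside, the difference was 0.19 for A_44_P501942, 0.17 for A_42_P584710 and 0.16 for A_44_P900672. Summed levels of mature neurons overlapped between nostrils, at 10.67 to 10.97 in A and 10.62 to 11.02 in B. Whether the difference between nostrils depended on sex was tested as an interaction, and no member had even an unadjusted p under 0.05, the lowest being 0.093, against 2.37% of all probes under 0.05 and 0% past 1%.

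**Figure D5:**
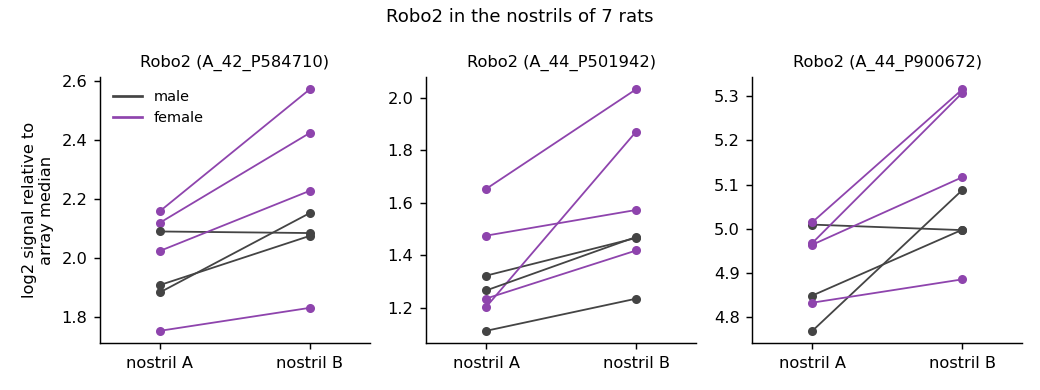
Levels of the 3 Robo2 probes (log2 signal relative to the array median) in nostrils A and B, with a line for each of the 7 rats measured in both, males in grey and females in purple. All 7 lines rise from A to B for A_44_P501942 and 6 of 7 rise for each of the other probes.

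The partners that carry guidance signals inside and at the surface of the cell were read from a list of 52 genes, of which 45 were on the array with 66 probes, 59 of them expressed. The GTPases Rhoa, Rac1 and Cdc42, the kinases Rock1, Limk1 and Pak1, the collapsin response proteins Dpysl2 to Dpysl5 with Crmp1, and the adhesion proteins Ncam1, L1cam and Neo1 were each detected on all 15 arrays by at least 1 probe. Met, Nfatc2 and Rgma were detected on 0 arrays. Between rats, 1 of 59 tested probes passed 1% (2.79% of all probes), Ptk2 A_44_P1045425, the focal adhesion kinase, which was lower in females 3 and 4 (4.34 and 4.30) than in the other rats (4.59 to 4.72, adjusted p = 0.0091). With slide as a block its adjusted p was 0.768. The other tested probes of Ptk2 did not set these females apart: A_44_P667865 read 3.45 and 3.39 in them and 3.18 to 3.47 in the other rats (adjusted p = 0.268), and A_44_P836576 read -0.23 and -0.41 against -0.42 to -0.26 (adjusted p = 0.796). Rats 1 to 4 lay above rats 5 to 8 for 5 of the 59 probes (4.61% of all probes) and below for 1 (6.75%). No partner passed 1% between the sexes in either direction, between nostrils or in the interaction, and 7 had an unadjusted p under 0.05 between the sexes (4 higher in females), against 17.1% of all probes, and 1 between nostrils, Cntn2, at 0.018, against 5.89%.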

How the data were processed

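Arrays of 15 samples of olfactory epithelium were analysed from the deposited scanner files, which the authors made with Agilent Feature Extraction 9.5.1.1 per the file headers. The processed signal intensity in these deposited files is already background-corrected. The authors also deposited a table of ratios. Over 19037 brighter probes, 100% of its values were within 2% of the intensity divided by the array's median and then by the probe's own median over the arrays. Here flagged spots were left out (0 at members), spots of a probe were averaged, and the signal was divided by the array's median, floored at 0.1 and put on the log2 scale. The floor lies at -3.32 on that scale. No member was saturated. Probes well above background on at least 7 arrays were tested with limma 3.58.1 in R 4.3.3 (trend, Benjamini-Hochberg over all probes tested): the sexes on means per rat, nostrils with the rat as a block, rats by an F over contrasts within each sex, and the nostril difference by sex. The nostrils of 1 rat pair the samples. In the main fits, p-values between the sexes rest on the spread between these rats, and those between rats and between nostrils on the spread of nostrils within rats. The fit of the sexes with slide as a block took the arrays as independent. The scripts were tested on simulated data. The members and all lists were chosen with earlier results of these data known. Named probes were those past 1% in any test, the highest F between rats in each family, the 5 lowest p between sexes and 3 between nostrils, all genes of a list for olfactory wiring, and genes with both expressed and undetected probes. Others named were chosen after their values were seen. Gene names and rn3 positions are those of the array's annotation, and 23 of the 99 accessions matched the RefSeq table. Alternatives covered scaling, background correction, filters, the floor, the ratio table, slide and each rat left out. The normexp correction added an offset of 50 to the signals, which makes log2 differences smaller, most of all for dim probes. The processed signal had array medians from 57.4 to 83.4. The labels do not give each rat's supplier, which was not analysed here.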

Additional observations from a re-analysis of the deposited data

Results flagged for a closer look

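For each tested member the 4 rats of a sex were searched for 1 animal that stood apart from the other 3 by more than the 95% critical value of Dixon's test. Chance alone flags about 1 in 20 such groups, and 10 of 152 groups (6.58%) were flagged, in 9 probes. Male 1 stood apart 4 times: Epha2 at -0.306 against -2.13 to -1.94 in the other males, Epha1 A_44_P542339 at 0.195 against -1.13 to -1.10, Sema4g A_44_P440772 at 0.297 against -0.22 to -0.20, and Plxna2 A_44_P175482, which was low, at -0.733 against -0.47 to -0.42. Male 2 stood apart for Sema4f at 1.95 against 2.05 to 2.06 and for Sema5b at -0.687 against -1.40 to -1.30. Male 5 stood apart for Unc5b at 2.59 against 2.35 to 2.39 and for Sema6a A_44_P401498 at 0.811 against 0.69 to 0.70. Female 8 stood apart for Sema5b at -1.04 against -1.80 to -1.68 and for Plxnc1 A_44_P932384 at 1.99 against 1.84 to 1.86.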

How the results depend on the processing

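The 4 members that differed between rats numbered 3 to 5 under the other scalings, background correction, filters, floor and ratio table, and 4 to 5 when single rats were dropped. Taking slide as a block left 0. At 5% they numbered 10. After normexp background correction every F of the 4 fell: Sema7a missed 1% (F = 7.80, adjusted p = 0.022), while Epha5 (F = 10.4 and 11.2) and Epha7 A_44_P241909 (F = 9.90) passed it. Without female 3, Epha7 A_44_P254373 passed 1% (F = 28.7). Between the sexes the count was 0 under every setting but slide as a block, where nostril A of female 3 alone stands for the females on slide 1. It was 0 too in rats 1 to 4 alone and in rats 5 to 8 alone, which were chosen after seeing the data. With each rat left out it was 0 to 0. The Robo1 difference between the sexes turned to -0.091 with slide as a block. Between nostrils the count was 0 under every setting, with no replicate block too, where 2 members had an unadjusted p under 0.05 (2.63%, against 1.46% of all probes), and for the interaction it was 0 to 0. With single rats dropped, members at an unadjusted p under 0.05 numbered 4 to 11 between the sexes (against 12.2% to 18.2% of all probes), 7 to 10 between nostrils (against 3.73% to 8.33%) and 0 to 3 for the interaction (3 without female 4, 3.95% against 5.1% of all probes, 2 without female 7, 2.63% against 3.34%, and 1 without male 5, 1.32% against 1.79%), and after normexp background correction 3, 1 and 0, against 6.74%, 2.36% and 1.98% of all probes. Between rats the same correction left 10 such members (13.2%, against 9.81%). Male 1, with 1 array, enters neither the fit between nostrils nor that of the interaction. The expressed members numbered 69 on all 15 arrays, 76 at 8 or more, 86 by the positive and significant call, and 72 to 73 with each rat left out. Probes at the floor have no order.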

Other observations

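Epha8 was detected on 1 array, nostril A of male 2, at 0.33, whereas nostril B of the same rat was at the floor of -3.32 and the remaining arrays lay at or below -2.92. Nrp2, below the line of detection on 13 of 15 arrays, read between -3.32 and -2.21 over all arrays.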
